A study of Mus musculus with 8 samples.

Results

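Elastic fibre and microfibril genes, 10 of the 23337 genes in the deposited table, were followed in mouse embryonic endothelial cells that had been sorted by flow cytometry at E15.5. These are the elastin gene Eln, the fibulins Fbln1, Fbln2 and Fbln5, the fibrillins Fbn1 and Fbn2, the interface protein gene Emilin1, the microfibril-associated Mfap2 and Mfap4, and the cross-linking enzyme gene Lox. They were chosen by name, with their measured levels in the comparison between tamoxifen and no tamoxifen already known, so their differences in that comparison are given as a description. Counts of those past a test's threshold are printed beside the share of all genes, and nothing is supported with them. The 3 libraries of the tamoxifen group came from embryos whose mothers were gavaged at E12.5, and the 3 libraries of the other group from embryos whose mothers received no tamoxifen. Per the series' design text, both groups were of the line Cdh5-CreERT2(PAC);Rosa26fsTRAP, in which the endothelial gene Cdh5 drives a tamoxifen-inducible Cre recombinase and Rosa26 carries a Cre-dependent reporter, while the genotype label of each sample reads wild type. Tamoxifen and any recombination it started cannot be told apart in this design. The labels give 4 samples per group. The table's header is 1 field short, so the name over each value column depends on where the header is placed. Column 6 and column 10 of the file have no settled group and are shown apart. A further value column, left unnamed or named without tamoxifen depending on the placement, was not used. The labels do not tie a sample to a litter or embryo. Every p-value therefore reflects the scatter among the deposited libraries, and part of that scatter may be technical.

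Elastic fibres are built on a scaffold of fibrillin microfibrils, onto which tropoelastin is deposited and then cross-linked by lysyl oxidases. Fibulins, emilins and microfibril-associated glycoproteins sit on the microfibrils or at their border with elastin and help in assembly. Mesenchymal cells, among them fibroblasts and smooth muscle cells, are the main makers of these proteins, and arterial endothelial cells also make some of them. Microfibrils also hold latent TGF-beta in the matrix.

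The 6 compared libraries held 12212472 to 19908404 reads in genes, of which 29.4% to 38.7% fell in the ribosomal RNA precursor Rn45s. Endothelial transcripts were present, with Cdh5 at 1978 to 5201 normalised reads, and none of the 10 endothelial markers was at 0. Macrophage markers were abundant as well. The 8 genes of that list summed to 27104, 25624 and 39462 normalised reads with tamoxifen, against 39245, 33574 and 35052 without. In each compared library this exceeded the sum of the 10 endothelial markers, given below. The lists hold different genes, so these sums do not give shares of cells. The table gives normalised reads summed over all sorted cells, so a smaller number of cells of a type and less RNA per cell cannot be told apart. tamoxifen_3 stood apart from the other tamoxifen libraries in the macrophage sum and in the markers of connective tissue and of endothelium given below.

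Elastic fibre transcripts were high in tamoxifen_1 and tamoxifen_2. In 9 of the 10 genes these libraries lay above the other 4, a pattern seen in 15.6% of the 13480 genes tested. Emilin1 was the exception. In tamoxifen_3, 4 genes lay above every library without tamoxifen (Eln, Fbln2, Fbln5 and Mfap4), 4 within their range (Fbln1, Fbn1, Mfap2 and Lox) and 2 below it (Fbn2 and Emilin1). Fbn2 was all but tied with the lowest library without tamoxifen, at 280.6 against 282.3. Over all genes tested, tamoxifen_3 lay above the range in 29.3% and below it in 26.7%.

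**Figure D1:**
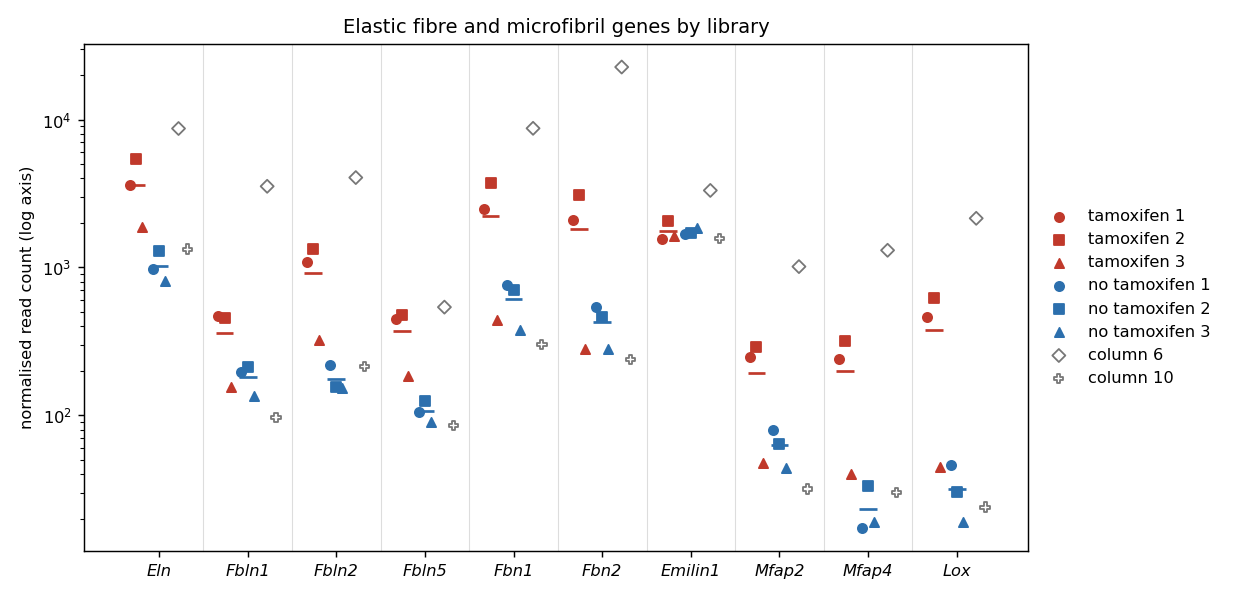
Normalised read counts (log axis) of the 10 genes in the 3 tamoxifen libraries (red), the 3 libraries without tamoxifen (blue) and the unplaced columns 6 and 10 (grey, open). Horizontal lines are group means. tamoxifen_1 and tamoxifen_2 lie above the blue points in 9 genes, whereas Emilin1 lies between 1559 and 2066 in all 6 compared libraries.

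Eln encodes tropoelastin, the soluble precursor of the elastic core. It had 3623, 5387 and 1887 normalised reads in the tamoxifen libraries, against 970.0, 1284 and 815.7 without tamoxifen. All tamoxifen libraries were above all others, tamoxifen_3 included, as in 6.24% of genes tested. The means were 3632 ± 1750.1 with tamoxifen and 1023 ± 239 without (SD, n = 3 each). The difference on the log2(value + 1) scale was 1.73 ± 0.34 (SE), a fold of 3.31. Eln lies on the minus strand of chromosome 5 at 134702593 to 134747323 (GRCm38), and 3.30% of its exonic bases are shared with the annotated gene Gm30003.

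Lox encodes lysyl oxidase, the copper-dependent enzyme that starts the cross-linking of elastin and collagen. Its values were 462, 619 and 44.9 normalised reads with tamoxifen, against 46.0, 30.2 and 19.02 without. The groups overlapped, because tamoxifen_3 lay just under the highest library without tamoxifen. Lox had the largest mean log2 difference of the 10 genes, 2.94 ± 0.87 (SE), and also the widest SE. It lies on chromosome 18 at 52516067 to 52529867, on the minus strand.

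The fibrillins form the backbone of microfibrils, and fibrillin-2 is the form known mainly from development. Fbn1 had 2501, 3743 and 439 normalised reads with tamoxifen, against 757, 708 and 378 without. Fbn2 had 2078, 3070 and 281 with tamoxifen, against 541, 460.2 and 282 without. Both genes were several-fold higher in tamoxifen_1 and tamoxifen_2 and not in tamoxifen_3, so the groups overlapped. Their log2 differences were 1.45 ± 0.70 (SE) for Fbn1 and 1.55 ± 0.77 (SE) for Fbn2. Per kb of exon, Fbn2 over Fbn1 gave 0.762, 0.753 and 0.586 with tamoxifen, against 0.657, 0.597 and 0.685 without, a ratio chosen after the values were seen. Fbn1, at chromosome 2 from 125300594 to 125507993, shares 20.1% of its exonic bases with the annotated gene Gm9913, and reads from the shared bases cannot be told apart without the strand setting. Fbn2 is on chromosome 18 at 58008623 to 58210487.

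Microfibril-associated proteins split in tamoxifen_3. Mfap2 encodes MAGP-1, a glycoprotein bound to fibrillin, and had 248, 288 and 47.7 normalised reads with tamoxifen against 79.8, 63.7 and 44.1 without. Mfap4 encodes a fibrinogen-related protein that binds microfibrils and elastin, and had 241, 316 and 39.98 with tamoxifen against 17.4, 33.5 and 19.02 without. The Mfap2 groups overlapped and the Mfap4 groups did not, though tamoxifen_3 exceeded the highest Mfap4 value without tamoxifen by few reads. Every tamoxifen library lay above every library without tamoxifen in 6.24% of genes tested. The log2 differences were 1.30 ± 0.62 (SE) and 2.65 ± 0.70 (SE). Mfap2 lies on chromosome 4 at 141010418 to 141015984. Mfap4 lies on chromosome 11 at 61485431 to 61488900, and 4.63% of its exonic bases are shared with Mapk7.

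Fibulins bridge elastin, microfibrils and basement membranes. Fbln5, which binds tropoelastin, integrins and cross-linking enzymes, had 451, 479 and 186 normalised reads with tamoxifen against 106, 125 and 90.6 without. Fbln2 had 1094, 1328 and 322 with tamoxifen against 219.5, 154 and 152 without. In both genes every tamoxifen library lay above every library without tamoxifen, as in 6.24% of genes tested. Fbln1, a fibulin of elastic fibres and basement membranes, had 469, 454 and 155 with tamoxifen against 195, 213 and 135 without, and its groups overlapped in tamoxifen_3. The log2 differences were 1.68 ± 0.34 (SE) for Fbln5, 2.16 ± 0.47 (SE) for Fbln2 and 0.85 ± 0.41 (SE) for Fbln1.

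The stretches upstream of Fbln5 and Fbln1 are shown because they hold no base of an annotated exon. In tamoxifen_3 Fbln5 lay above the range without tamoxifen and Fbln1 within it. Any link of that to these sequences was not tested. Each line holds the 250 bases before a RefSeq start on GRCm38.p6, read 5′ to 3′ on the gene's own strand. Fbln5 is on the minus strand at chr12:101819120-101819369 and Fbln1 on the plus strand at chr15:85205699-85205948. They are the only listed windows of the 10 genes that hold no base of an annotated exon. Capitals mark matches, on either strand, to the GC box GGGCGG.
Fbln5: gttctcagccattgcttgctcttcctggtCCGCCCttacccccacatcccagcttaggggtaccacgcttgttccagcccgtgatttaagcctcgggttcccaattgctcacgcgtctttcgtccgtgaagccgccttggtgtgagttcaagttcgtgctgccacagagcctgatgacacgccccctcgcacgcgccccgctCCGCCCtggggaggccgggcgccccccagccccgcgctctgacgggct
Fbln1: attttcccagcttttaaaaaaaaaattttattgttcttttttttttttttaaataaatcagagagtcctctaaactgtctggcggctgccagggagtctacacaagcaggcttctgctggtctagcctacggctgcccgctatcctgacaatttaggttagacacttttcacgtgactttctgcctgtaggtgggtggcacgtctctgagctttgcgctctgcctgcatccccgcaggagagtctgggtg
The Fbln5 window held 2 GC boxes and the Fbln1 window none, and 32.7% of 32851 RefSeq windows of this length held at least 1. Neither window held TATAAA (in 12.4% of windows), the AP-1 site TGANTCA (6.75%), the TEAD site GGAATG (12.6%) or the heat shock half-sites GAANNTTC (6.69%), searched on both strands. A second listed Fbln1 window, which reaches into an exon and is not shown, held 1 GC box, and a second Fbln5 window held none of the 5 motifs. No matched letters overlapped those of another motif. Fbln5 spans chromosome 12 from 101746565 to 101819055, Fbln1 chromosome 15 from 85205949 to 85286535 and Fbln2 chromosome 6 from 91212455 to 91272540. The sequence table used here held windows for 6 of the 10 genes.

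Emilin1 encodes a glycoprotein at the border of elastin and microfibrils that limits the processing of TGF-beta precursor. It had 1559, 2066 and 1643 normalised reads with tamoxifen, against 1676, 1714 and 1834 without. The groups overlapped, with the lowest and the highest value both in the tamoxifen group. Its log2 difference was 0.00 ± 0.13 (SE), with a 95% interval of -0.28 to 0.29. This direction changed with the library left out, and Emilin1 is described here as having no settled direction. It lies on chromosome 5 at 30913402 to 30921277.

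Across the 10 genes the median log2 difference was 1.62, where the median of all 13480 genes was -0.02. All 10 passed the filter of a mean of 10 normalised reads. All 10 differences were above 0, as in 46.5% of genes tested. In 8 of them the log2 difference exceeded 1, as in 4.23% of genes tested. In 4 of them every tamoxifen library lay above every library without tamoxifen, as in 6.24% of genes tested. None of the 10 passed limma with Benjamini-Hochberg adjustment at 0.05, where 0.0445% of genes passed, and 5 had an unadjusted p under 0.05. Over all 13480 genes, 659 higher and 556 lower ones had such a p. edgeR's quasi-likelihood test on recovered reads called none of them, where 0.0371% of genes were called higher. DESeq2 called Eln, Fbln2, Fbln5, Mfap4 and Lox higher, where 1.83% of genes were called higher. Without tamoxifen_3, limma called 9 of the 10 higher, where 7.22% of all genes were called higher. Without any other single library it called none. Since the members were chosen with this comparison known, nothing is read from these counts.

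The markers of connective tissue moved with these libraries. The 11 mesenchymal and fibroblast markers summed to 56419.5, 87217 and 4489.5 normalised reads with tamoxifen, against 4334, 2653 and 2019.6 without. All 11 were higher in tamoxifen_1 and tamoxifen_2 than in the other 4 libraries, as were 15.6% of all genes tested. None was at 0 in any library. Col1a1, the main fibrillar collagen gene, had 26219, 42746 and 1988 with tamoxifen against 1866, 1179 and 895.6 without. The 8 cartilage markers summed to 18205, 15537 and 902 with tamoxifen against 812, 1048 and 692 without. The part of these cells in the values of the elastic fibre genes was not tested.

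**Figure D2:**
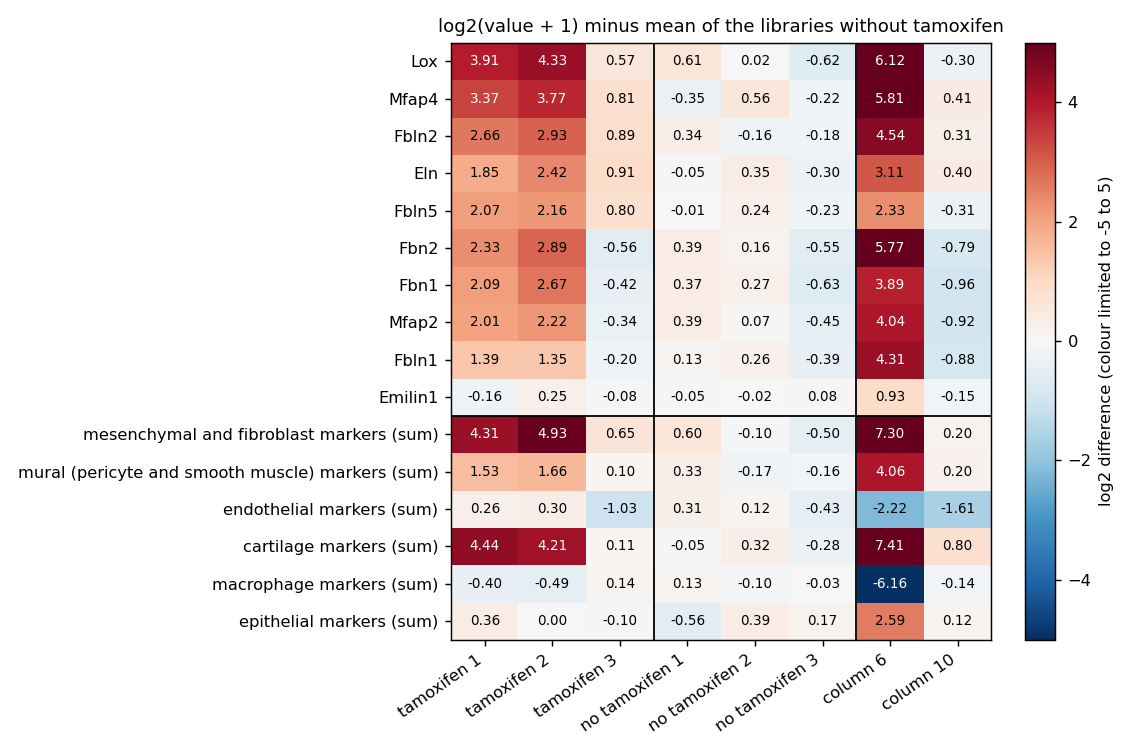
Difference of log2(value + 1) from the mean of the libraries without tamoxifen, for the 10 genes (ordered by mean difference, largest at the top) and for the summed reads of 6 marker lists, in each library and in columns 6 and 10. In tamoxifen_1 Lox reached 3.91 and Eln 1.85 while the mesenchymal sum reached 4.31. In tamoxifen_3 Fbln5 stood at 0.80 and the endothelial sum at -1.03.

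The sizes of the differences in tamoxifen_1 and tamoxifen_2 ranged widely among the genes. Relative to the mean without tamoxifen, the mesenchymal sum was higher by 4.31 and 4.93 on the log2 scale in these libraries. The collagen genes Col1a1, Col1a2 and Col3a1 were the largest terms of that sum. Single markers of the list ranged from 3.25 (Twist1) to 4.66 (Dcn) in tamoxifen_1 and from 3.72 (Twist1) to 5.09 (Col1a1) in tamoxifen_2. Of the 10 elastic fibre genes Lox came nearest to the sum, at 3.91 and 4.33, followed by Mfap4 at 3.37 and 3.77. Eln stood at 1.85 and 2.42 and Fbln1 at 1.39 and 1.35. Set against Col1a1 reads, Eln had ratios of 0.138, 0.126 and 0.949 with tamoxifen, and of 0.520, 1.09 and 0.911 without. This ratio was chosen after the values were seen.

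Mural markers were lower in level. The 10 pericyte and smooth muscle genes summed to 1996, 2186 and 741 normalised reads with tamoxifen, against 867, 611 and 619 without. The smooth muscle actin gene Acta2, picked after its values were seen, had 122, 81.7 and 14.0 with tamoxifen against 16.5, 14.0 and 22.8 without. The log2 differences within the list ran from -0.61 (Rgs5) to 2.21 (Cspg4), with 1.54 for Acta2, and 8 of the 9 tested genes were above 0. No mural marker was at 0. In 8 of the 9 tested genes tamoxifen_1 and tamoxifen_2 were the highest, as in 15.6% of all genes tested. In 5 of them tamoxifen_3 lay below every library without tamoxifen, as in 26.7% of all genes tested. Among these, Acta2 (14.03 against a lowest value of 14.04 without tamoxifen) and Des (0.701 against 0.761) were all but tied. Myh11 was near the floor, at 1.40 against 2.28. The part of the mural markers in the result was not tested.

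Endothelial markers went the other way in tamoxifen_3. The 10 genes summed to 18624, 19164 and 7639 normalised reads with tamoxifen, against 19283, 16955 and 11563.5 without. In tamoxifen_3 each of the 10 lay below every library without tamoxifen, as did 26.7% of all genes tested. Eln, Fbln2, Fbln5 and Mfap4 were higher there than in any library without tamoxifen, as were 29.3% of all genes tested. The part of the endothelial level in these values was not tested. The ratio of Fbln5 to Cdh5 reads was 0.0867, 0.100 and 0.0940 with tamoxifen and 0.0211, 0.0293 and 0.0307 without. The ratio of Eln to Cdh5 was 0.697, 1.13 and 0.954 with tamoxifen and 0.193, 0.300 and 0.277 without. Both ratios were chosen after the values were seen, and neither overlapped between the groups. Their denominator Cdh5 had 1978 normalised reads in tamoxifen_3, against 2948 to 5020 without tamoxifen, which raises both ratios there. The share of all genes whose ratio to Cdh5 separates the groups was not computed.

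Compared per kb of annotated exon, the order of the genes differed between the groups. With tamoxifen, Eln had the highest mean, 449 ± 216 normalised reads per kb, followed by Emilin1 at 356 ± 55.1 and Fbn1 at 184 ± 138 (SD, n = 3 each). Without tamoxifen, Emilin1 was first at 353 ± 16.7, before Eln at 126 ± 29.5, Mfap2 at 51.7 ± 14.8 and Fbn1 at 50.6 ± 17.0 (SD, n = 3 each). Lox was last there at 6.65 ± 2.83 per kb, and in the tamoxifen group Fbln5 was last at 53.8 ± 23.4.

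Most neighbours in these orders were not apart beyond their spread. In the tamoxifen group Emilin1 over Fbn1 was the single step without overlap. Without tamoxifen the steps Emilin1 over Eln, Eln over Mfap2 and Fbln2 over Fbln5 had none. In tamoxifen_3 Eln stood at 233 and Emilin1 at 333 per kb of exon. With the longest coding transcript as the length, Eln stood at 490 and Emilin1 at 426 there, so their order depends on the gene model.

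**Figure D3:**
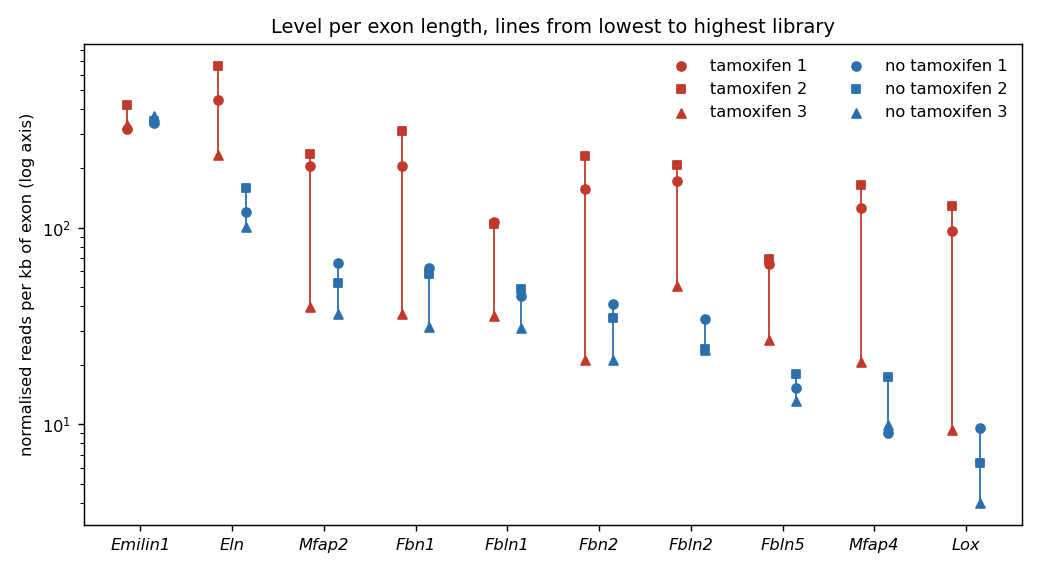
Normalised reads per kb of annotated exon (log axis) for each gene, tamoxifen libraries in red and libraries without tamoxifen in blue, ordered by the mean without tamoxifen. Vertical lines join the lowest and the highest library. Emilin1 has the shortest lines, and the red lines of Lox and Fbn2 are the longest.

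The make-up of the summed level shifted accordingly. Emilin1 made up 16.6%, 16.5% and 41.3% of the 10 genes' summed level per kb in the tamoxifen libraries, against 45.8%, 45.3% and 57.8% without tamoxifen. Eln made up 23.6%, 26.2% and 28.9% with tamoxifen, against 16.1%, 20.7% and 15.7% without. Lox made up 5.10%, 5.11% and 1.17% with tamoxifen, against 1.30%, 0.826% and 0.619% without. Shares of a sum are tied to each other, so a gene whose own level is even, as with Emilin1, takes a smaller share where others are high.

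**Figure D4:**
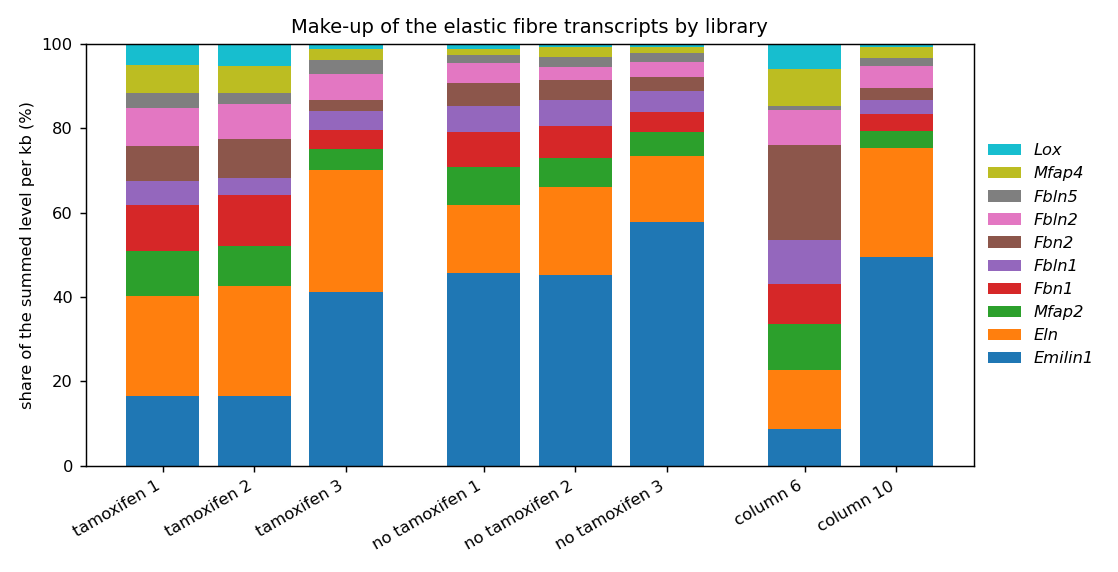
Share of each gene in the summed level per kb of the 10 genes, by library and for columns 6 and 10 (stacked bars, 100% in each). Emilin1 (bottom, blue) fills 16.6% and 16.5% in tamoxifen_1 and tamoxifen_2 and at least 41.3% in the other compared libraries. Fbn2 (brown) fills 22.3% in column 6.

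Column 6 and column 10 were unlike each other. Column 6, which would be a library without tamoxifen or with it depending on where the header is placed, had the highest value of all 8 columns in each of the 10 genes. It held 8692 normalised reads of Eln, 8719 of Fbn1, 22637 of Fbn2 and 2148 of Lox. Its Fbn2 to Fbn1 ratio per kb was 2.38. Col1a1 stood at 233293 there, Cdh5 at 747 and the macrophage list sum at 502. Column 10, a tamoxifen library in one placement and unnamed in the other, held 1330 of Eln, 301 of Fbn1, 238 of Fbn2 and 23.98 of Lox. It lay below every library without tamoxifen in 6 of the 10 genes, within their range in 3 and above it for Eln. Its Cdh5 was 1097 and its mesenchymal sum 3267. The shares of all genes placed in these ways in column 6 and column 10 were not computed, so nothing is read from these counts of genes.

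The placement of these columns changed the direction of several genes. If the names stand over the last 8 value columns, which puts column 6 among the libraries without tamoxifen and column 10 among those with it, the median log2 difference of the 10 genes was 0.22. Fbln1 (-0.66), Fbn1 (-0.13), Fbn2 (-0.48), Emilin1 (-0.27) and Mfap2 (-0.27) then turned negative. Eln (0.62), Fbln2 (0.56), Fbln5 (0.60), Mfap4 (0.64) and Lox (0.60) stayed positive. If they stand over the first 8 instead, column 6 counts as a tamoxifen library, and the median was 2.06 and all 10 differences were positive. The unused value column, which that placement names as a library without tamoxifen, was left out of this fit. With column 10 added to the tamoxifen group the median was 1.08 and 9 were positive, all but Emilin1.

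Of the wider pathway, 67 partner genes in 5 lists were looked at, and 60 passed the filter. None was called by limma over all genes, where 0.0445% were. edgeR called none of them either, where 0.0371% of genes were called higher. An unadjusted p under 0.05 was found in 13 of the 60, and in 659 higher and 556 lower of all 13480 genes. DESeq2 called 8 of them, all higher (Efemp1, Ltbp2, Ltbp3, Emilin3, Mfap5, Vcan, Loxl1 and Thbs1), where 1.83% of genes were called higher. Without tamoxifen_3, limma called 29 higher, where 7.22% of genes were, and 2 lower, where 3.48% were. The lower ones were the integrin gene Itgb5 and the protease gene Ctss.

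Assembly partners of microfibrils and elastin, 22 tested, had 19 positive and 3 negative differences and a median of 0.91, against -0.02 over all genes. In 2 of the 22, Vcan and Adamts17, every tamoxifen library lay above every other, where 6.24% of all genes tested did so. Vcan, the proteoglycan versican that binds fibrillin and hyaluronan, had 1004, 1129 and 267 normalised reads with tamoxifen against 108, 111 and 103 without, a log2 difference of 2.63 ± 0.47 (SE, limma adjusted p = 0.227). All tamoxifen libraries lay above all others. Mfap5, which encodes the second MAGP protein, had 44.1, 91.2 and 7.01 with tamoxifen against 8.68, 4.32 and 0.761 without (2.84 ± 0.98, limma adjusted p = 0.475). Efemp1, the fibulin-3 gene, had 41.0, 46.6 and 0.701 with tamoxifen against 2.60, 1.08 and 0.761 without (2.67 ± 1.27, limma adjusted p = 0.575). Both overlapped through tamoxifen_3, and both had low values, so the sizes depend on the method. With a pseudocount of 5 they were 2.09 for Mfap5 and 1.89 for Efemp1, and with DESeq2 3.41 and 4.34.

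Cross-linking enzymes and their activators, 8 tested, had 7 positive and 1 negative difference and a median of 0.48. Loxl1, a lysyl oxidase paralog tied to elastic fibre upkeep, had 152, 281 and 14.7 normalised reads with tamoxifen against 11.3, 5.40 and 5.33 without, at 3.47 ± 0.95 (SE, limma adjusted p = 0.462). Its tamoxifen libraries all lay above the others, as did those of the paralogs Loxl3 and Loxl4, so 3 of the 8 genes did so, where 6.24% of all genes tested did. Loxl2 stood at 0.95 ± 0.50 (limma adjusted p = 0.599) and Loxl4 at 0.67 ± 0.30 (limma adjusted p = 0.554).

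TGF-beta ligands, activators and receptors, 10 tested, had 5 positive and 5 negative differences and a median of 0.03. Thbs1, which encodes thrombospondin-1, an activator of latent TGF-beta, had 8322, 8044 and 10545 normalised reads with tamoxifen against 5311, 5105 and 4298 without. It was highest in tamoxifen_3, unlike the elastic fibre genes (0.87 ± 0.14, SE, limma adjusted p = 0.189). Its tamoxifen libraries all lay above the others, as in 6.24% of genes tested. Tgfbr2, the type II receptor gene, differed little, with 1927, 1989.5 and 1953 normalised reads with tamoxifen against 2315, 2071 and 1989.9 without (-0.12 ± 0.098, SE, limma adjusted p = 0.736). Its tamoxifen libraries all lay below the others, as in 7.62% of genes tested, but 1989.5 and 1989.9 were all but tied. Tgfb3 stood at 1.23 ± 0.48 (limma adjusted p = 0.516) and the co-receptor gene Tgfbr3 at 0.79 ± 0.37 (limma adjusted p = 0.573).

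Integrin receptors, 7 tested, had 3 positive and 4 negative differences and a median of -0.04. Itga8 stood at 0.98 ± 0.80 (SE, limma adjusted p = 0.724) and Itgb1 at -0.27 ± 0.16 (limma adjusted p = 0.625). Itgb5 had 823, 927 and 1137 normalised reads with tamoxifen against 1180.0, 1196 and 1256 without (-0.34 ± 0.13, limma adjusted p = 0.508). Its tamoxifen libraries all lay below the others, as in 7.62% of genes tested.

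Elastolytic proteases and their inhibitors, 13 tested, had 7 positive and 6 negative differences and a median of 0.06. The gelatinase gene Mmp2 stood at 0.96 ± 0.40 (SE, limma adjusted p = 0.537), Ctsk, a cathepsin that cuts elastin, at 0.88 ± 0.48 (limma adjusted p = 0.602) and the inhibitor gene Timp1 at 0.54 ± 0.50 (limma adjusted p = 0.763). Elane, the neutrophil elastase gene, picked after its values were seen, was abundant at 6052, 5884 and 6339 normalised reads with tamoxifen and 4815, 5449 and 8660 without, and at 22.4 in column 6.

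**Figure D5:**
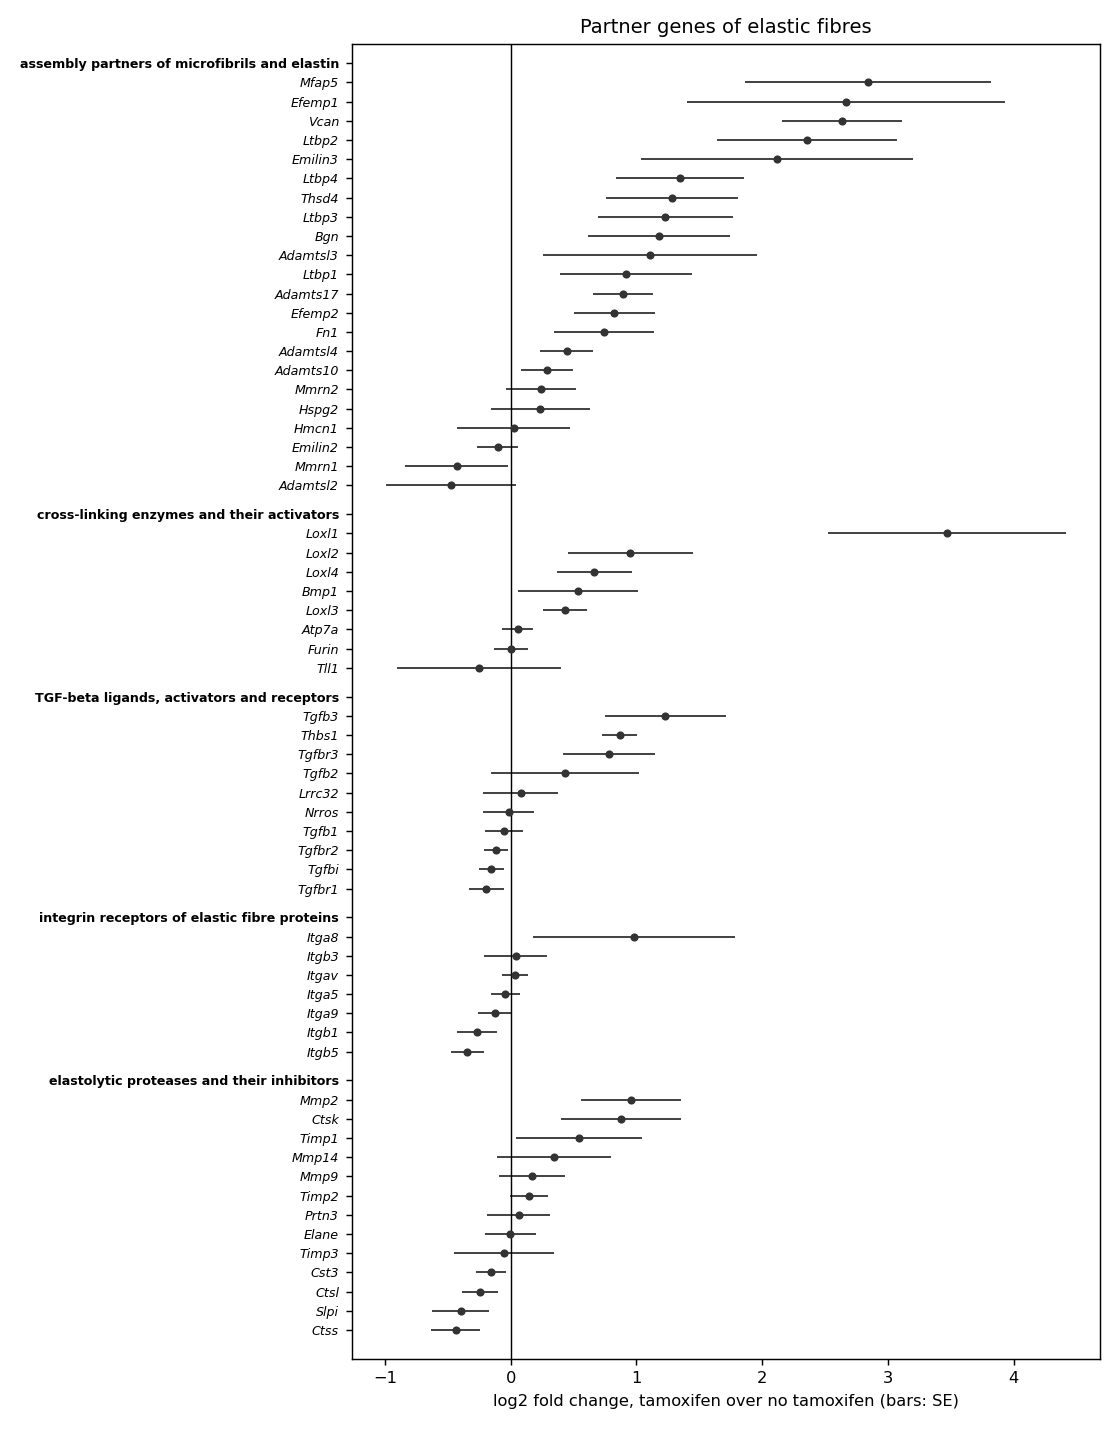
log2 fold change on the log2(value + 1) scale, tamoxifen over no tamoxifen, of the 60 tested partner genes in 5 lists, with SE bars. Most assembly partners lie right of 0, and the integrin genes lie around 0 apart from Itga8. The low gene Mfap5 is the highest assembly partner on this scale at 2.84, and stood at 2.09 with a pseudocount of 5.

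The genes whose pattern was most like the mean of the 10 were sought among 10326 genes, each averaging 50 normalised reads or more. The nearest were Aebp1, Pcolce, Col16a1, Capn6, Peg3, Thbs2, Bicc1, Col12a1, Igdcc4 and Col1a1, with Pearson's r of 0.995 to 0.999 over the 6 libraries. Aebp1 had 279, 340.1 and 60.3 normalised reads with tamoxifen against 52.1, 54.0 and 34.2 without, which is the order of libraries seen for Eln. Col1a1, Col12a1 and Col16a1 are collagen genes, Pcolce encodes an enhancer of procollagen processing and Thbs2 a matrix thrombospondin. In all, 372 of the 10326 genes had an r over 0.9. These values describe 6 points of which tamoxifen_1 and tamoxifen_2 lie far from the rest.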

How the data were processed

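RNA from sorted endothelial cells was sequenced after depletion of ribosomal RNA, per the labels' protocols. The values are a signal unit, read counts per gene divided by a factor per library, as deposited by the authors. STAR, HTSeq 0.11.2, DESeq2 and the builds mm10 and hg38 appear without roles in the submitters' processing notes. The sources used here give no strand setting. The header has 9 fields and each data line 10. Counting the row name as column 1, columns 3 to 5 carry names without tamoxifen and 7 to 9 names with tamoxifen under both placements, and were called no_tamoxifen_1 to 3 and tamoxifen_1 to 3. Column 6 and column 10 were kept apart, and 1 value column was not used. In every column 100% of values were whole multiples of a step within 0.001 reads, so reads were recovered for count tests.

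Genes with a mean of at least 10 over the 6 libraries were tested on log2(value + 1) by limma 3.58.1 (R 4.3.3, trended empirical Bayes). The model held the treatment group alone, and p-values were adjusted over all 13480 genes by Benjamini-Hochberg, with a threshold of 0.05. Fold changes on this scale understate those of low genes. limma called 6 genes, all higher with tamoxifen. edgeR 4.0.16 and DESeq2 1.42.0 on recovered reads, pseudocounts, filters, left-out libraries, a replicate block and header placements were alternatives. The tests were tested on simulated data. Levels per kb used the union of GENCODE M21 exons on GRCm38, the assembly of mm10. Lists and members were chosen with earlier results of these data known. Named partner genes are the 3 with the largest absolute difference in each list, and others named were called under an alternative, did not overlap between groups or were picked after their values were seen. 2 symbols were matched by older names.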

Additional observations from a re-analysis of the deposited data

Results flagged for a closer look

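Column 6, outside the comparison, exceeded every library without tamoxifen in all 10 genes. It held 8692 normalised reads of Eln, 3536 of Fbln1, 4050.3 of Fbln2, 539 of Fbln5 and 8719 of Fbn1. It also held 22637 of Fbn2, 3316 of Emilin1, 1013 of Mfap2, 1306 of Mfap4 and 2148 of Lox. It was the shallowest column, with 8695745 reads in genes and 45.7% of them in Rn45s. Column 10, also outside the comparison, exceeded the libraries without tamoxifen for Eln alone, at 1330 against a highest value of 1284. The header does not settle which group column 6 belongs to. The shares of all genes in which column 6 or column 10 exceeded the libraries without tamoxifen were not computed.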

How the results depend on the processing

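limma called 6 genes, against 275 with DESeq2, 21 with the replicate number as a block, 0 with the names over the first 8 value columns and 2 to 1442 with a library left out. The fit with the names over the first 8 lacked the unused value column, which that placement names as a library without tamoxifen. Of the 10 elastic fibre genes limma called 0, against 5 with DESeq2, 2 with the block (Eln and Fbln5) and 0 to 9 with a library left out. Of the partner genes it called 0, against 8 with DESeq2, 1 with the block (Vcan) and 0 to 31 with a library left out. Without tamoxifen_3 the counts were 1442, 9 and 31. The median log2 difference of the 10 genes was 1.62, 0.22 with the names over the last 8 value columns, and 1.13 to 2.26 with a library left out. The cause of these changes was not tested. In the main model the replicate numbers were not taken as pairs. Deviations of same-numbered libraries correlated at 0.195, 0.036 and 0.345, and those of different-numbered libraries at -0.334 to 0.329. These ranges overlap, so they cannot decide whether the numbers mark pairs.

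With the names over the last 8 value columns 13 of 25 named genes changed sign: Fbln1 (-0.66), Fbn1 (-0.13), Fbn2 (-0.48), Emilin1 (-0.27), Mfap2 (-0.27), Loxl2 (-0.49), Loxl4 (-0.35), Tgfb3 (-0.073), Tgfbr3 (-0.33), Itga8 (-0.79), Mmp2 (-0.45), Ctsk (-0.24) and Timp1 (-0.43). Emilin1 was at -0.037 with column 10 added and at -0.12 to 0.082 with a library left out. Pseudocounts of 0.5 and 5, no filter on low values, a mean of at least 50 and edgeR changed no sign or call of a named gene they tested. With the longest coding transcript in place of the exonic union, chosen after seeing the data, Eln averaged 943 per kb with tamoxifen and 266 without. Depth limits the lowest values, such as those of Mfap4, Lox, Mfap5 and Efemp1 without tamoxifen.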

Other observations

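The ratio of Mfap2 to Fbn1 normalised reads was 0.0991, 0.0769 and 0.109 in the tamoxifen libraries and 0.106, 0.0901 and 0.117 without tamoxifen. It was 0.116 in column 6 and 0.106 in column 10. The ratio of Lox to Fbn1 was 0.185, 0.165 and 0.102 in the tamoxifen libraries, all above the 0.0608, 0.0427 and 0.0503 without tamoxifen. It was 0.246 in column 6 and 0.0797 in column 10. These ratios were chosen after the values were seen and were not tested.

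Among emilin family genes outside the 10, picked after their values were seen, Emilin2 had 1913, 2152 and 3022 normalised reads with tamoxifen and 2546, 2371 and 2551 without, so its highest value was in tamoxifen_3. The endothelial Mmrn2 had 581, 581 and 296 with tamoxifen and 490.2, 393 and 312 without, and was lowest in tamoxifen_3. Emilin3 had 66.6, 119.7 and 4.21 with tamoxifen and 12.1, 3.24 and 8.37 without. Mmrn1 had 562, 469 and 187 with tamoxifen and 654, 567 and 326 without.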
